A study of Homo sapiens with 9 samples.

Results

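The 10 genes described here encode cell surface antigens that are targeted, or have been proposed as targets, in myeloid leukaemia: CD33, CD38, CD47, CD70, CD96, CD99, CLEC12A, HAVCR2, IL1RAP and IL3RA. They were chosen by symbol in the authors' deposited table, which matched all 10 among 60605 gene identifiers, and 9 of the 10 passed the filter on low counts that left 20655 genes for testing. Total RNA was sequenced from KG-1a, a human acute myeloid leukaemia line of CD34-positive immature cells, in 3 groups of 3 libraries. The groups were PRMT2 knockout clone 1 (KO clone 1), PRMT2 knockout clone 2 (KO clone 2) and PRMT2 wild-type cells (WT). PRMT2 is a protein arginine methyltransferase, and both knockouts were made by CRISPR/Cas9 editing with PRMT2-targeting crRNAs. All groups were grown in the same medium without drug. Each knockout genotype is a single clone, so an effect of losing PRMT2 and a feature of that clone cannot be told apart within 1 clone. The sample titles do not say whether WT was cloned or given control editing. If it was not, effects of editing and cloning could not be told apart from the loss of PRMT2 in either clone. The labels do not say whether replicates were separate cultures, so the p-values measure the spread between these libraries, which may be technical. The comparison asks whether RNA of these antigens differs between cells without and with intact PRMT2, and whether both clones do the same.

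Leukaemic blasts and leukaemic stem cells carry many of these molecules at the surface, where antibodies, antibody-drug conjugates or engineered T cells can reach them. The set spans several receptor classes: a sialic acid-binding lectin (CD33), a C-type lectin-like receptor (CLEC12A), immunoglobulin superfamily receptors (HAVCR2, CD96, CD47), cytokine receptor chains (IL3RA, IL1RAP), an ectoenzyme (CD38), a tumour necrosis factor family ligand (CD70) and an adhesion glycoprotein (CD99). Only RNA was measured here, and surface protein was not.

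CLEC12A, IL1RAP, CD99 and CD96 fell in each clone, HAVCR2 and CD47 fell in KO clone 2, and IL3RA rose in KO clone 2. Promoter windows from RefSeq are printed first for the 4 antigens that fell in each clone and for the 1 that rose. CD47, which fell in KO clone 2 only, also has an entry, and its window is described below but not printed. Each window holds the 250 bases before the RefSeq start on the gene's own strand (GRCh38.p14), 5′ to 3′. Capitals mark matches on either strand to 7 short motifs, namely the TATA box, the GC box core, the CCAAT box, an E-box, a GATA core, an ETS core and a RUNX core, which are spelled out after the windows. Matches that overlapped each other were all counted. The windows are chr12:9971159-9971408 for CLEC12A, chr3:190513835-190514084 for IL1RAP, chrX:2691045-2691294 for CD99, chr3:111541947-111542196 for CD96 and chrX:1336535-1336784 for IL3RA, all on the plus strand. Those of CLEC12A and CD96 lie wholly inside the longer gene spans of the GENCODE annotation, downstream of its first annotated start. The windows of IL1RAP, CD99 and IL3RA also run past the first start in that annotation, at 190514051, 2691187 and 1336616.
CLEC12A: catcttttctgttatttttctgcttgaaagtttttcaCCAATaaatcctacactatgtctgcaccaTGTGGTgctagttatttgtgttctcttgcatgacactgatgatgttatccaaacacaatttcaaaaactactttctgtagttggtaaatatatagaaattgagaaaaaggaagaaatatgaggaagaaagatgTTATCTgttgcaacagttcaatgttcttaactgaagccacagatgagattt
IL1RAP: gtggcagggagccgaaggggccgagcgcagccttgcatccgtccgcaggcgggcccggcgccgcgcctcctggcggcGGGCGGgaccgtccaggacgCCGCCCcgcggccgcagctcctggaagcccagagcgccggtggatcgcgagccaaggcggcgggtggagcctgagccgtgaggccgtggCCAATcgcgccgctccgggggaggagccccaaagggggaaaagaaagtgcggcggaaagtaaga
CD99: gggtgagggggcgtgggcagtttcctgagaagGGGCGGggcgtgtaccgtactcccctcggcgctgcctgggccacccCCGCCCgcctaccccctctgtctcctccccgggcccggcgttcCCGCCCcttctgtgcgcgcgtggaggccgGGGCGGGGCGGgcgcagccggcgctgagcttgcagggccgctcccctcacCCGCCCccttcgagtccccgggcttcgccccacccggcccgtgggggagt
CD96: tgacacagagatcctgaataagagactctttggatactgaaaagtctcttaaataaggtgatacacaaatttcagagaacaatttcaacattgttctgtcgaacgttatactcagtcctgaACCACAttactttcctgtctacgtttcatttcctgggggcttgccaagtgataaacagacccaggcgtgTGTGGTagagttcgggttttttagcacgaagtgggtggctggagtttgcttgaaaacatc
IL3RA: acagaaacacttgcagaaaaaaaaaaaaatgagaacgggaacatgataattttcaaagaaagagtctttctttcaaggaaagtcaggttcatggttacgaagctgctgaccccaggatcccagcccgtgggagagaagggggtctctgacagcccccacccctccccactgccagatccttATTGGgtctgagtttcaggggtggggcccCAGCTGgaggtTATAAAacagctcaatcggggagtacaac

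The CLEC12A window was AT-rich, with a GC content of 32.8% and 0 CpG dinucleotides, and held 1 match each to the CCAAT box, the GATA core and the RUNX core. The CD99 window had a GC content of 78% and 28 CpG, with 6 matches to the GC box core. The IL1RAP window had 74.8% GC and 33 CpG, with 2 matches to the GC box core and 1 to the CCAAT box. The 4 antigens that fell in each clone therefore differed in base composition at their starts. The CD96 window had 42% GC and 6 CpG, with 2 matches to the RUNX core. The IL3RA window had 49.6% GC and 4 CpG, with 1 match each to the TATA box, the CCAAT box and the E-box. The CD47 window had 79.6% GC and 39 CpG, with 6 matches to the GC box core, much like that of CD99. It is chr3:108091032-108091281 on the minus strand, and also lies wholly inside the GENCODE gene span, downstream of its first annotated start. Over all 27305 promoters of the same length the median GC content was 58% and the median number of CpG was 11. The letters searched for the GC box core were GGGCGG, which 42.3% of those promoters held. The CCAAT box is spelled by its name and was in 33% of them. For the ETS core the search used GGAAGT, which was found in 19.9%. The E-box was searched as CAGCTG, and 13.8% of the promoters held at least 1 match. The TATA box was taken as TATAAA, which occurred in 11.1% of all promoters. The RUNX core was TGTGGT, with a match in 10.9% of all promoters. Finally, the GATA core was searched as AGATAA and was present in 9.37%. These matches describe letters, and binding was not measured.

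Library depth was between 28006342 and 43149410 counted read pairs. Levels are given as CPM, a gene's counts per 1e+06 counts of the library scaled by TMM, and a floor of 3 counts came to 0.0701 to 0.110 CPM per library. KO clone 1 replicate 1 stood apart, with 13.33% multimapping pairs, against 3.865% to 4.511% in the remaining libraries. This library also held the mitochondrial ribosomal RNAs MT-RNR1 and MT-RNR2 at 13440 and 13862 CPM, against up to 52.0 and 40.8 CPM in the rest. All 36 fitted changes of the antigens kept their direction and their side of the adjusted p of 0.05 without it. PRMT2 RNA was at 20.7 ± 0.544 CPM in KO clone 1 and 21.2 ± 0.153 CPM in KO clone 2, against 39.4 ± 0.393 CPM in WT (SD, n = 3 libraries each), lower in all 6 knockout libraries. The summed level of 9 identity and myeloid markers of the line was 2738 to 2854, 2769 to 2865 and 2691 to 2764 CPM in KO clone 1, KO clone 2 and WT. Among them CD34 was at 735, 765 and 626 CPM, ANPEP at 615, 644 and 585 CPM and ITGAM at 6.85, 7.57 and 9.57 CPM, whereas MPO and LYZ did not pass the filter. Summed markers of epithelial and stromal cells were at 4.45 to 4.79, 2.52 to 3.74 and 1.71 to 2.40 CPM in KO clone 1, KO clone 2 and WT, those of B cells at 9.60 to 11.3, 15.3 to 16.1 and 15.4 to 16.4 CPM, and those of erythroid cells under 0.5 CPM in every library. In bulk RNA, fewer cells with a transcript and less transcript per cell cannot be told apart.

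**Figure D1:**
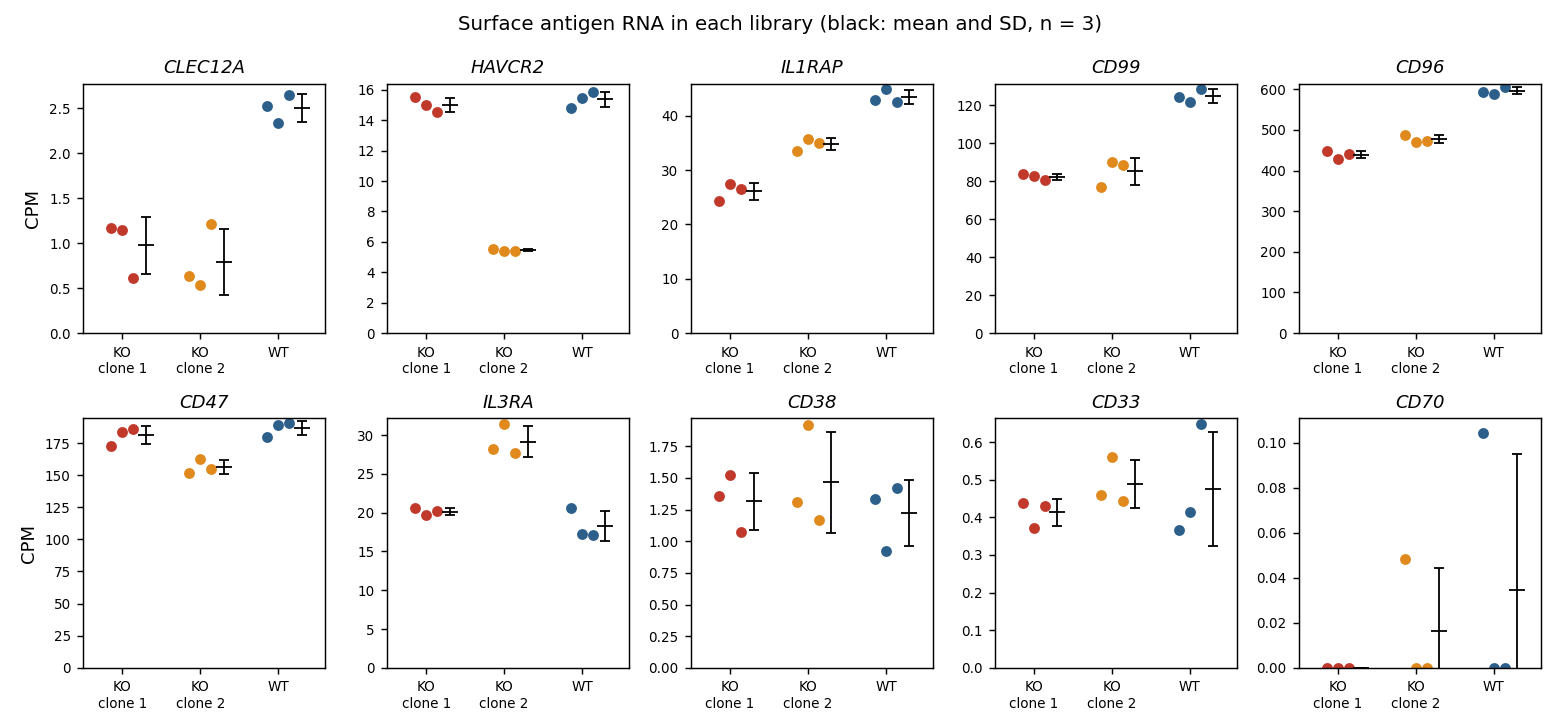
Level of each antigen gene in CPM (vertical axis, from 0, a scale of its own per panel) in every library of KO clone 1, KO clone 2 and WT, with the mean and SD over 3 libraries in black. CLEC12A, IL1RAP, CD99 and CD96 lie lower in all 6 knockout libraries than in WT, HAVCR2 lies near 5.5 CPM in KO clone 2 and near 15 CPM in the other groups, and IL3RA is highest in KO clone 2.

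A change passed at a Benjamini-Hochberg adjusted p under 0.05 over all tested genes in edgeR's quasi-likelihood fit of all 9 libraries, and was called when its log2 fold change was also at least 1 in size. Of the 9 tested antigens, 4 passed in KO clone 1 against WT, 0 higher and 4 lower, while 36.2% of all genes passed, 17.4% higher and 18.8% lower. KO clone 2 against WT had 7 of 9 that passed, 1 higher and 6 lower, while 30.5% of all genes passed, 14.4% higher and 16.1% lower. Called antigens numbered 1 in KO clone 1 (background 7.58%) and 2 in KO clone 2 (background 5.96%). The antigens were chosen with earlier results of these data known, so these counts describe them and do not test the set. The shares of all genes also take in genes of every level that passed the filter. The median log2 fold change over the 9 was -0.18 in KO clone 1 and -0.32 in KO clone 2, beside 0.00 over all tested genes in each. In KO clone 1 that median was the value of CD33, a gene of few counts whose change did not pass. The CD33 value was 0.081 without WT replicate 3, so the median of KO clone 1 does not by itself show a shift of the antigens. Both comparisons share the 3 WT libraries, so the clones' values stand side by side below and are not independent of each other.

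**Figure D2:**
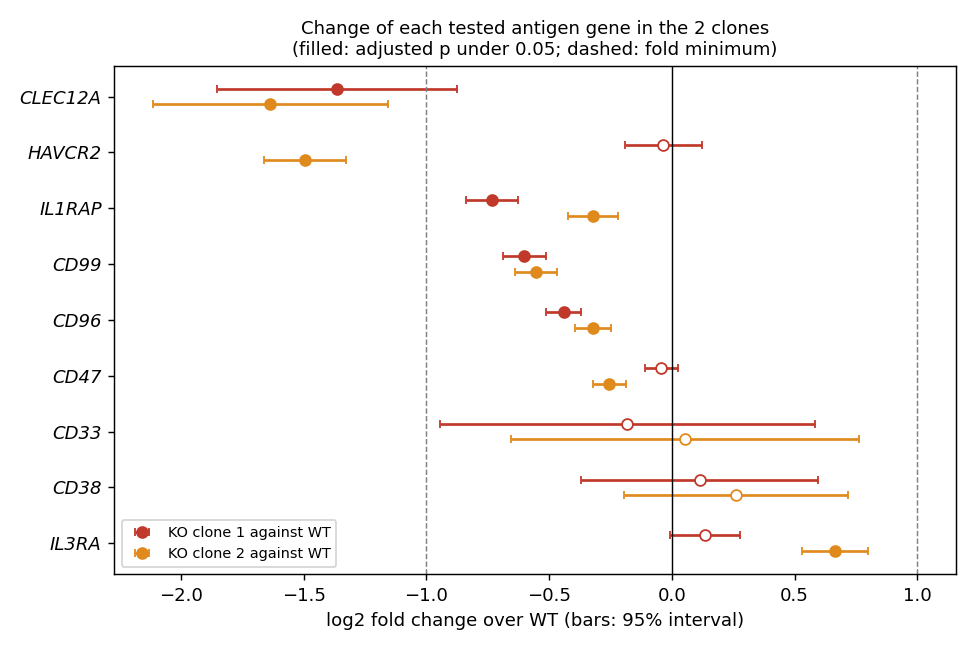
Log2 fold change over WT of the 9 tested antigen genes (horizontal axis, bars: 95% interval) in KO clone 1 and KO clone 2, filled where the adjusted p was under 0.05, with dashed lines at the fold minimum of 1. HAVCR2 lies at -0.034 in KO clone 1 and -1.49 in KO clone 2, and CLEC12A lies below -1 in each.

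Among the lectin-type receptors, CLEC12A fell in each clone and CD33 was too low to resolve. CLEC12A (ENSG00000172322, chromosome 12, 9951316 to 9995694, plus strand) encodes CLL-1, an inhibitory C-type lectin-like receptor of myeloid cells that is found on leukaemic stem cells. It was at 1.17, 1.15 and 0.614 CPM in KO clone 1 and at 0.630, 0.534 and 1.22 CPM in KO clone 2, against 2.53, 2.34 and 2.65 CPM in WT. Every knockout library was lower than every WT library, and the clones overlapped each other. The group means were 0.978 ± 0.316, 0.793 ± 0.369 and 2.51 ± 0.156 CPM in KO clone 1, KO clone 2 and WT (SD, n = 3 libraries each). The level was 2.58-fold lower in KO clone 1 (log2 fold change -1.36, SE 0.241, edgeR adjusted p = 1.47e-05) and 3.11-fold lower in KO clone 2 (-1.64, SE 0.236, adjusted p = 5.14e-07). The clones differed by -0.27, with a 95% interval of -0.84 to 0.30 and an adjusted p of 0.542, so a difference between them was not detectable at this depth. The counts behind these values were low, between 20 and 52 in the knockout libraries against 86 to 97 in WT. Leaving out 1 library at a time gave -1.51 to -1.11 in KO clone 1 and -2.09 to -1.43 in KO clone 2. The gene overlaps CLEC12A-AS1 and CLEC1B on the other strand, and 96.48% of its stranded counts were on its own strand.

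CD33 (ENSG00000105383, chromosome 19, 51225064 to 51243860, plus strand) encodes a sialic acid-binding inhibitory receptor of myeloid cells and is the target of gemtuzumab ozogamicin. It had 12 to 14 counts in KO clone 1, 19 to 21 in KO clone 2 and 14 to 21 in WT. Its levels of 0.439, 0.372 and 0.430 CPM in KO clone 1 and 0.461, 0.560 and 0.444 CPM in KO clone 2 overlapped those of 0.365, 0.414 and 0.647 CPM in WT. The log2 fold change was -0.18 in KO clone 1 (95% interval -0.95 to 0.58, adjusted p = 0.761) and 0.054 in KO clone 2 (-0.66 to 0.76, adjusted p = 0.936). Intervals this wide leave changes just short of the fold minimum undetectable at this depth.

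The immunoglobulin superfamily receptors did not move alike: HAVCR2 fell in KO clone 2, CD96 fell in each clone and CD47 fell slightly in KO clone 2. HAVCR2 (ENSG00000135077, chromosome 5, 157085422 to 157142869, minus strand) encodes TIM-3, an inhibitory receptor of exhausted T cells that is also carried by leukaemic stem cells. It was at 15.5, 15.0 and 14.6 CPM in KO clone 1 and at 5.55, 5.42 and 5.40 CPM in KO clone 2, against 14.8, 15.5 and 15.8 CPM in WT. KO clone 1 overlapped WT, and all 3 libraries of KO clone 2 were below both. In KO clone 2 the level was 2.82-fold lower than in WT (log2 fold change -1.49, SE 0.083, adjusted p = 1.12e-18). KO clone 1 showed a change of -0.034, with a 95% interval of -0.19 to 0.12 (adjusted p = 0.781). The difference of KO clone 2 from KO clone 1 was itself called at -1.46 (SE 0.085, adjusted p = 1.53e-17). Of the 9 antigens, 5 passed in that comparison of the clones, 3 higher and 2 lower, and 1, HAVCR2, was called. Among all genes 25.9% passed, 13.4% higher and 12.6% lower, and 2.82% were called. HAVCR2 overlaps MED7, a Mediator subunit gene on the same strand, which was at 4.44, 3.96 and 4.37 CPM in KO clone 1, KO clone 2 and WT and passed in neither clone.

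CD96 (ENSG00000153283, chromosome 3, 111292719 to 111665750, plus strand) encodes TACTILE, a receptor of T and NK cells for the poliovirus receptor family that also marks leukaemic stem cells. It was the most abundant of the 10, at 447, 430 and 441 CPM in KO clone 1 and 488, 469 and 473 CPM in KO clone 2, against 595, 588 and 605 CPM in WT. The 3 groups did not overlap. The log2 fold change was -0.44 in KO clone 1 (SE 0.036, adjusted p = 1.56e-13) and -0.32 in KO clone 2 (SE 0.036, adjusted p = 1.04e-09), which is 1.36-fold and 1.25-fold lower and short of the fold minimum. KO clone 2 was above KO clone 1 by 0.12 (SE 0.036, adjusted p = 0.0114). That small difference did not pass without KO clone 1 replicate 2 (adjusted p = 0.0551) or without KO clone 2 replicate 1 (adjusted p = 0.063).

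CD96 and HAVCR2 are also genes of T and NK cells, so the markers of those cells are given beside them. The summed level of 11 T and NK cell genes ranged from 237 to 245 CPM in KO clone 1 and from 294 to 308 CPM in KO clone 2, against 526 to 553 CPM in WT. All 7 of the 7 tested were lower in each clone, where 18.8% (KO clone 1) and 16.1% (KO clone 2) of all genes were, and CD3D, which belongs to the T cell receptor complex, was at 119, 149 and 290 CPM in KO clone 1, KO clone 2 and WT. None of the 11 was at 0 in all libraries, and 6, 6 and 5 of them averaged under 1 CPM in the 3 groups. HAVCR2 was at its WT level in KO clone 1, where these markers were lowest. Their part in the CD96 and HAVCR2 results was not tested.

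CD47 (ENSG00000196776, chromosome 3, 108043091 to 108091862, minus strand) encodes the signal to macrophages that restrains phagocytosis. It was at 173, 184 and 186 CPM in KO clone 1 and 152, 163 and 155 CPM in KO clone 2, against 180, 189 and 190 CPM in WT. KO clone 1 overlapped WT, and KO clone 2 lay below both. The change was -0.25 in KO clone 2 (SE 0.033, adjusted p = 3.08e-08) and -0.043 in KO clone 1 (95% interval -0.11 to 0.024, adjusted p = 0.343). The clones differed by -0.21 (SE 0.033, adjusted p = 2.64e-06).

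The cytokine receptor chains went in opposite directions. IL1RAP (ENSG00000196083, chromosome 3, 190514051 to 190659750, plus strand) encodes the accessory chain shared by the receptors for interleukin-1, interleukin-33 and interleukin-36. It was at 24.4, 27.4 and 26.6 CPM in KO clone 1 and at 33.6, 35.8 and 35.1 CPM in KO clone 2, against 42.9, 44.9 and 42.6 CPM in WT. The groups formed 3 separate steps, with KO clone 1 the lowest. The log2 fold change was -0.73 in KO clone 1 (SE 0.053, adjusted p = 3.18e-15) and -0.32 in KO clone 2 (SE 0.050, adjusted p = 1.65e-06). KO clone 2 exceeded KO clone 1 by 0.41 (SE 0.053, adjusted p = 6.63e-08).

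IL3RA (ENSG00000185291, chromosome X, 1336616 to 1382689, plus strand) encodes CD123, the ligand-binding alpha chain of the interleukin-3 receptor, and was the only antigen of the 9 tested that rose past the test in a clone. It was at 20.6, 19.6 and 20.2 CPM in KO clone 1 and 28.2, 31.4 and 27.7 CPM in KO clone 2, against 20.6, 17.3 and 17.1 CPM in WT. KO clone 2 lay above all other libraries, and KO clone 1 overlapped WT replicate 1. The level was 1.59-fold higher in KO clone 2 (log2 fold change 0.67, SE 0.067, adjusted p = 6.91e-11). For KO clone 1 the change was 0.13 (95% interval -0.0079 to 0.28, adjusted p = 0.14), and it passed at 0.23 without WT replicate 1 (adjusted p = 0.0147). KO clone 2 was above KO clone 1 by 0.53 (SE 0.068, adjusted p = 4.53e-08).

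CD99 (ENSG00000002586, chromosome X, 2691187 to 2741309, plus strand) encodes an adhesion glycoprotein of leukocytes that is raised on leukaemic stem cells. It was at 83.6, 82.8 and 80.6 CPM in KO clone 1 and at 77.0, 90.1 and 88.4 CPM in KO clone 2, against 124, 122 and 129 CPM in WT. Every knockout library was lower than WT, and KO clone 2 overlapped KO clone 1. The fall was similar in size in each clone, at -0.60 in KO clone 1 (SE 0.043, adjusted p = 4.06e-13) and -0.55 in KO clone 2 (SE 0.042, adjusted p = 2.43e-12). The clones differed by 0.049 (95% interval -0.040 to 0.14, adjusted p = 0.47), which became 0.11 without KO clone 2 replicate 1 (adjusted p = 0.024). CD99P1, a pseudogene copy of CD99, was at 21.1, 18.7 and 15.3 CPM in KO clone 1, KO clone 2 and WT and rose by 0.46 (adjusted p = 1.08e-06) and 0.29 (adjusted p = 0.00131) in the clones. Whether reads of 1 of these genes were counted at the other was not tested, which leaves the exact level of each uncertain.

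CD99 and IL3RA both lie in the first pseudoautosomal region, shared by the X and Y chromosomes. Of 15 genes listed for that region 12 were tested, and 3 rose and 2 fell in the mean of both clones, with 0 called and a median log2 fold change of 0.016. In that comparison 35.3% of all genes passed, 16.4% higher and 18.9% lower, and 6.53% were called. Of the 9 antigens, 7 passed in it, 1 higher and 6 lower, and 1 was called. HAVCR2, CD47 and IL3RA were among those that passed, although none of them passed in KO clone 1 alone. The 12 tested genes of the region include IL3RA, among its rises, and CD99, among its falls. Any effect of the region itself was not tested.

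The ectoenzyme and the ligand gave little signal. CD38 (ENSG00000004468, chromosome 4, 15778275 to 15853232, plus strand) encodes a NAD-consuming ectoenzyme that is absent from the most immature CD34-positive cells. It was at 1.35, 1.52 and 1.07 CPM in KO clone 1 and 1.31, 1.92 and 1.17 CPM in KO clone 2, against 1.33, 0.926 and 1.42 CPM in WT, and all groups overlapped. The log2 fold change was 0.11 in KO clone 1 (95% interval -0.37 to 0.60, adjusted p = 0.763) and 0.26 in KO clone 2 (-0.19 to 0.72, adjusted p = 0.433). CD70 (ENSG00000125726, chromosome 19, 6583183 to 6604103, minus strand), the ligand of CD27, did not pass the filter. It had 0 counts in KO clone 1, 2 in KO clone 2 and 4 in WT, the last 2 sums each from a single library, and 4 further counts lay on the other strand. The ratio of KO clone 2 to WT was 0.46, with a 95% counting interval of 0.0416 to 3.21. By the floor of 3 counts over the group, the 0 counts of KO clone 1 allow a level of up to 0.0326 CPM, and the upper end of their 95% counting interval was 0.0400 CPM. Such limits take in counting error alone, because the reads carry no molecular identifiers and need not be separate molecules.

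Levels can be compared between genes only per exon length. In CPM per kilobase of exons, the order in WT was CD96 (106), CD99 (25.7), CD47 (22.7), IL3RA (10.7), IL1RAP (3.88), HAVCR2 (2.90), CLEC12A (0.770), CD38 (0.179), CD33 (0.0796) and CD70 (0.0227). Of neighbours in that order, the ranges over 3 libraries overlapped for CD33 and CD70 only. In KO clone 1, CD47 (22.0) stood above CD99 (17.0) and HAVCR2 (2.83) above IL1RAP (2.33), and CLEC12A (0.300) overlapped CD38 (0.192). In KO clone 2, CD47 (19.0), CD99 (17.5) and IL3RA (17.0) formed a group of overlapping ranges, IL1RAP (3.11) stayed above HAVCR2 (1.03), and CLEC12A (0.244) again overlapped CD38 (0.214). These are levels of RNA per length and not numbers of molecules at the surface.

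**Figure D3:**
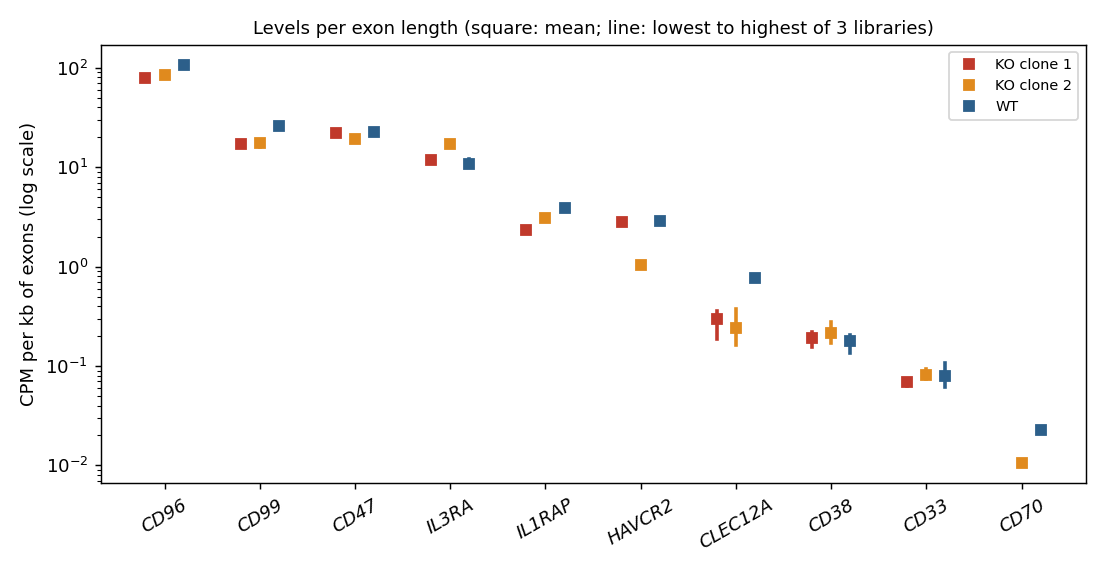
Level of each antigen gene in CPM per kilobase of exons (vertical axis, log scale) in KO clone 1, KO clone 2 and WT, where squares are group means and lines run from the lowest to the highest of 3 libraries. CD96 leads in every group, at 78.1, 84.8 and 106, and values of 0 (all libraries of KO clone 1 and 4 others for CD70) cannot be drawn on a log axis.

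Summed over the 10 genes, antigen RNA was at 767, 761 and 771 CPM in KO clone 1 and 786, 797 and 788 CPM in KO clone 2, against 982, 981 and 1005 CPM in WT. The knockout sums were 77.51% and 79.94% of the WT mean. CD96 alone made up 57.29%, 60.31% and 60.27% of the sum in KO clone 1, KO clone 2 and WT, so the sum mostly follows that gene. No p is given for the sum, because its members were chosen with earlier results known.

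In the authors' deposited table, which sets both clones together against WT, CD96 had a log2 fold change of -0.38 (adjusted p = 3.65e-13), CD99 of -0.57 (1.06e-20), CLEC12A of -1.43 (5.12e-05) and IL1RAP of -0.51 (1.43e-04). IL3RA was at 0.43 there (adjusted p = 0.023). For HAVCR2 the authors' deposited table gave -0.58 with an adjusted p of 0.506, and for CD47 -0.14 with 0.186. In the edgeR mean of both clones, HAVCR2 was at -0.76 (adjusted p = 1.4e-12) and CD47 at -0.15 (adjusted p = 3.81e-05). There each clone has its own coefficient and the spread is taken within groups, so the spread between the clones is left out. HAVCR2 was at -0.034 in KO clone 1 and -1.49 in KO clone 2, and CD47 at -0.043 and -0.25. The p-values of the mean therefore do not show a change shared by the clones.

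The binding partners of the antigens were examined as a list of 18 genes, of which 11 were tested. Of these, 1 rose and 6 fell in KO clone 1, and 3 rose and 5 fell in KO clone 2, with medians of -0.14 and -0.17, beside 36.2% and 30.5% of all genes that passed in either direction. THBS1, which encodes thrombospondin-1, a secreted ligand of CD47, was at 2.12, 2.11 and 2.24 CPM in KO clone 1 and 5.33, 5.44 and 6.97 CPM in KO clone 2, against 9.94, 9.43 and 10.2 CPM in WT. It fell by 2.19 on the log2 scale in KO clone 1 (adjusted p = 2.97e-18) and by 0.73 in KO clone 2 (adjusted p = 3.47e-07). When counts disregarded strand, the falls passed the test but were smaller, at -0.70 and -0.39. SIRPA, the macrophage receptor of CD47, and CD27, the receptor of CD70, did not pass the filter.

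PECAM1, an endothelial and leukocyte adhesion molecule that binds CD38, rose in each clone. It was at 55.3, 53.0 and 52.4 CPM in KO clone 1 and 60.6, 59.8 and 56.5 CPM in KO clone 2, against 25.7, 27.2 and 25.8 CPM in WT, and the knockout libraries lay above all WT libraries. The log2 fold change was 1.03 in KO clone 1 (SE 0.047, adjusted p = 1.17e-21) and 1.17 in KO clone 2 (SE 0.046, adjusted p = 8.93e-24). Of the ligands of CD96, NECTIN1 fell by 0.60 (adjusted p = 9.94e-18) and by 0.25 (adjusted p = 3.95e-07) in the 2 clones. PVR was at -0.15 in KO clone 1 (adjusted p = 0.0111) and 0.17 in KO clone 2 (adjusted p = 0.00299), opposite in sign, and the value of KO clone 1 did not pass without KO clone 1 replicate 2 (-0.12, adjusted p = 0.0874).

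Of the ligands of TIM-3, LGALS9 fell in KO clone 1, CEACAM1 fell in KO clone 2 and HMGB1 fell slightly in each. HMGB1 was at -0.14 in KO clone 1 (adjusted p = 0.00106) and -0.10 in KO clone 2 (adjusted p = 0.02). LGALS9, or galectin-9, was at -0.47 in KO clone 1 (adjusted p = 0.00776) and -0.20 in KO clone 2 (adjusted p = 0.296). CEACAM1 was at -0.085 in KO clone 1 (adjusted p = 0.719) and -0.50 in KO clone 2 (adjusted p = 0.00918). The CEACAM1 change in KO clone 2 did not pass without KO clone 2 replicate 1 (adjusted p = 0.071), KO clone 2 replicate 2 (adjusted p = 0.0536) or WT replicate 3 (adjusted p = 0.0659). PILRA, whose mouse counterpart binds mouse CD99, was at 0.18 in KO clone 1 (adjusted p = 0.571) and -0.17 in KO clone 2 (adjusted p = 0.621).

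**Figure D4:**
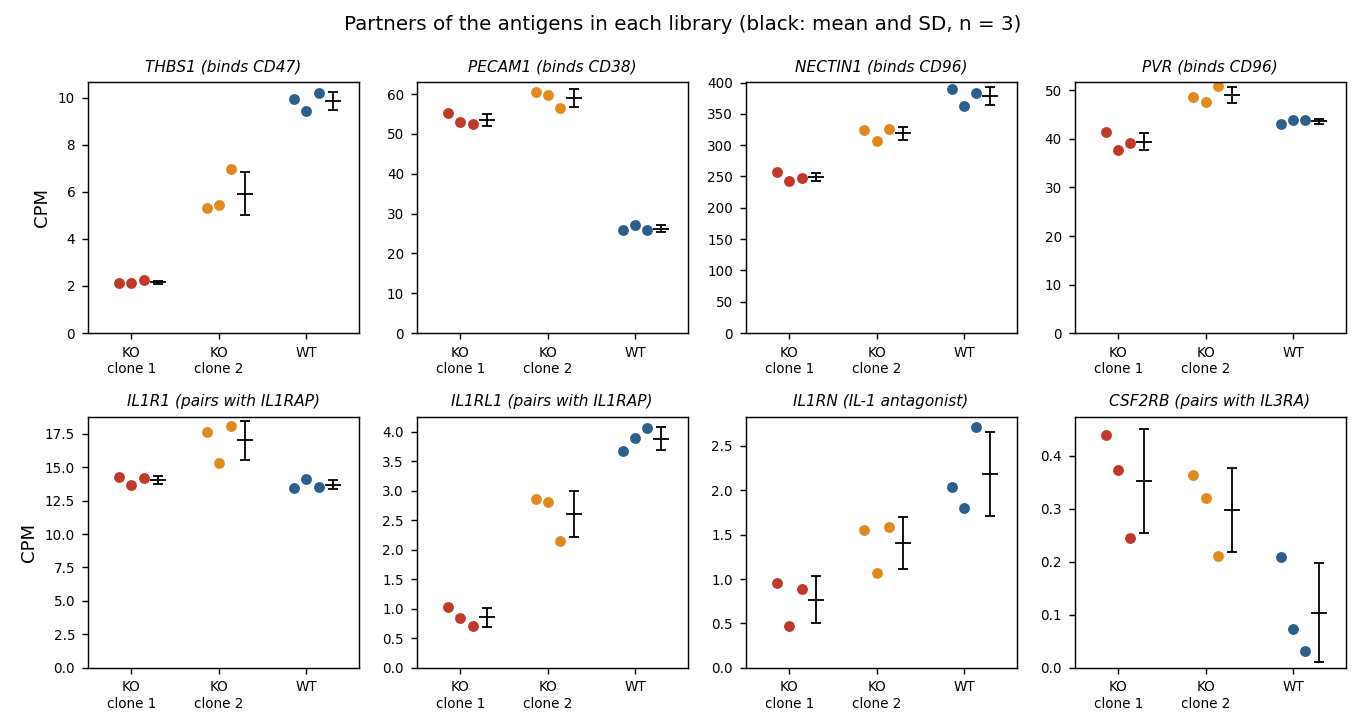
Level in CPM (vertical axis, from 0) of 8 partners of the antigens in every library of KO clone 1, KO clone 2 and WT, with mean and SD over 3 libraries in black. THBS1, IL1RL1 and IL1RN step down with KO clone 1 lowest, and PECAM1 is higher in all 6 knockout libraries.

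Among 20 tested of 24 receptor chains and signalling partners, 7 rose and 5 fell in KO clone 1, and 5 rose and 5 fell in KO clone 2, with medians of 0.0085 and 0.030, beside the 36.2% and 30.5% of all genes that passed. The partners of IL1RAP did not follow it as a group. IL1RL1, the interleukin-33 receptor chain, was at 1.02, 0.838 and 0.706 CPM in KO clone 1 and 2.86, 2.80 and 2.15 CPM in KO clone 2, against 3.68, 3.90 and 4.07 CPM in WT. It fell by 2.19 in KO clone 1 (adjusted p = 7.74e-13) and by 0.58 in KO clone 2 (adjusted p = 0.00241). IL1R1, the signalling receptor of interleukin-1, was at 0.035 in KO clone 1 (adjusted p = 0.77) and rose by 0.31 in KO clone 2 (adjusted p = 0.00077). IL1RN, the natural antagonist of that receptor, fell by 1.50 in KO clone 1 (adjusted p = 2.71e-06) and by 0.62 in KO clone 2 (adjusted p = 0.0212), and the change in KO clone 2 did not pass without KO clone 2 replicate 2 (adjusted p = 0.135), without WT replicate 3 (adjusted p = 0.174) or with DESeq2's Wald test (adjusted p = 0.0991).

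CSF2RB, the beta chain that pairs with IL3RA to form the working interleukin-3 receptor, was scarce in every group. It had 0.439, 0.372 and 0.245 CPM in KO clone 1 and 0.364, 0.320 and 0.210 CPM in KO clone 2, against 0.209, 0.0731 and 0.0308 CPM in WT, from 32, 36 and 12 counts per group. The log2 fold change was 1.67 in KO clone 1 (adjusted p = 0.0178) and 1.44 in KO clone 2 (adjusted p = 0.0464). Its calls rest on few counts: without WT replicate 3 the values were 1.31 (adjusted p = 0.0959) and 1.08 (adjusted p = 0.198), and without WT replicate 2 they were 1.45 (adjusted p = 0.0814) and 1.22 (adjusted p = 0.169). Without WT replicate 1, which held most of the WT counts, they were 2.61 (adjusted p = 0.00497) and 2.38 (adjusted p = 0.0122). Its change in KO clone 1 also missed the test without KO clone 1 replicate 1 (adjusted p = 0.0725) or replicate 2 (adjusted p = 0.0521). Its change in KO clone 2 missed the test with adjusted p-values of 0.0516, 0.0549 and 0.0522 without KO clone 1 replicates 1, 2 and 3 and of 0.155 and 0.105 without KO clone 2 replicates 1 and 2. It also missed the test when counts disregarded strand (adjusted p = 0.0529) and with no filter on low counts (adjusted p = 0.0724). With DESeq2's Wald test the adjusted p was 0.058 in KO clone 1 and 0.133 in KO clone 2.

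Genes related to the antigens by family included many that fell. Of 38 listed, 21 were tested, and in the mean of both clones 5 rose and 12 fell, with 0 and 6 called and a median of -0.43. Of all genes 35.3% passed in that comparison, 16.4% higher and 18.9% lower, and 6.53% were called. In KO clone 1, 4 rose and 10 fell, with 0 and 4 called, while 36.2% of all genes passed and 7.58% were called. In KO clone 2, 5 rose and 12 fell, with 0 and 5 called, while 30.5% of all genes passed and 5.96% were called. TNFSF14, or LIGHT, which belongs to the ligand family of CD70, was at 20.8 ± 2.05 CPM in KO clone 1 and 27.7 ± 1.92 CPM in KO clone 2, against 102 ± 1.00 CPM in WT (SD, n = 3 libraries each). It fell by 2.30 in KO clone 1 (adjusted p = 3.33e-30) and by 1.88 in KO clone 2 (adjusted p = 3.76e-28). SIGLEC6, a relative of CD33, was at 41.3 ± 0.912 CPM in KO clone 1 and 91.9 ± 2.26 CPM in KO clone 2, against 143 ± 2.25 CPM in WT (SD, n = 3 libraries each). Its log2 fold changes were -1.79 (adjusted p = 8.58e-34) and -0.64 (adjusted p = 2.36e-19).

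The other called relatives were all under 1 CPM. BST1, the neighbour and paralogue of CD38, was at -1.74 in KO clone 1 (adjusted p = 0.00486) and -3.19 in KO clone 2 (adjusted p = 1.74e-05). CLEC7A, the beta-glucan receptor dectin-1, was at -1.64 (adjusted p = 0.001) and -1.30 (adjusted p = 0.00463), and its value in KO clone 1 was -2.26 without KO clone 1 replicate 2. TIGIT, which shares the ligand PVR with CD96, was at -0.60 in KO clone 1 (adjusted p = 0.159) and fell by 1.55 in KO clone 2 (adjusted p = 0.000423). Only 24.31% of the stranded counts at TIGIT were on its own strand, and when counts disregarded strand its value in KO clone 1 was -0.40 and passed (adjusted p = 0.0447). CLEC12B, the closest listed relative of CLEC12A, was at -1.07 in KO clone 1 (adjusted p = 0.106) and fell by 2.12 in KO clone 2 (adjusted p = 0.00258). In the mean of both clones the CLEC12B value did not pass without WT replicate 3 (-1.31, adjusted p = 0.061), and TIGIT fell short of the fold minimum when counts disregarded strand (-0.80) and without KO clone 2 replicate 2 (-0.99), KO clone 2 replicate 3 (-0.97) or WT replicate 3 (-0.89).

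Of 46 other surface antigens of leukaemia, 34 were tested, and in the mean of both clones 8 rose and 19 fell, with 1 and 7 called and a median of -0.19, beside 35.3% of all genes that passed and 6.53% that were called. In KO clone 1, 7 rose and 19 fell, with 2 and 8 called, while 36.2% of all genes passed and 7.58% were called. In KO clone 2, 10 rose and 16 fell, with 2 and 4 called, while 30.5% of all genes passed and 5.96% were called. Antigens of this list called in a single clone but not in the mean are counted here and not named. ADGRG1, or GPR56, an adhesion receptor of stem cells, was the called rise in the mean. It was at 43.7 ± 1.94 CPM in KO clone 1 and 71.1 ± 1.37 CPM in KO clone 2, against 17.7 ± 0.302 CPM in WT (SD, n = 3 libraries each). Its log2 fold changes were 1.30 (adjusted p = 2.49e-24) and 2.01 (adjusted p = 1.82e-31). The integrin genes ITGA6 and ITGB7 fell, ITGA6 by 1.47 and 0.93 (adjusted p = 7.69e-30 and 1.38e-23) and ITGB7 by 3.33 and 2.41 (adjusted p = 2.26e-20 and 5.38e-18) in KO clone 1 and KO clone 2. ROR1, an orphan receptor kinase, was at 5.22 and 9.97 CPM in the clones against 15.0 CPM in WT and fell by 1.52 (adjusted p = 2.72e-17) and 0.59 (adjusted p = 2.98e-07).

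The other antigens called in the mean of both clones were scarce. CXCR4, the receptor that holds blood stem cells in the marrow, was at 0.0718 and 0.104 CPM in KO clone 1 and KO clone 2, against 0.705 CPM in WT, from 7, 13 and 77 counts. Its change of -3.15 in KO clone 1 was -4.25 without KO clone 1 replicate 3, and that of -2.67 in KO clone 2 was -3.39 without KO clone 2 replicate 3. CD86, a co-stimulatory ligand, was at 0.206 and 0.235 CPM in the clones against 0.895 CPM in WT, and its change of -2.17 in KO clone 1 was -3.02 without KO clone 1 replicate 1. CD84 fell by 1.95 in KO clone 1 (adjusted p = 2.4e-05) and by 0.90 in KO clone 2 (adjusted p = 0.0185), and the change in KO clone 2 did not pass without KO clone 2 replicate 2 (adjusted p = 0.0923), KO clone 2 replicate 3 (adjusted p = 0.0963) or WT replicate 1 (adjusted p = 0.101), nor with DESeq2's Wald test (adjusted p = 0.0961). CSF1R, the receptor of macrophage colony-stimulating factor, was at 0.043 and 0.401 CPM in the clones against 0.394 CPM in WT. Its mean change of -1.51 was -0.24 and did not pass when counts disregarded strand (adjusted p = 0.168), nor did it pass without WT replicate 3 (-1.21, adjusted p = 0.0945). The CSF1R change in KO clone 1 was -3.06 (adjusted p = 0.000291), and -0.41 (adjusted p = 0.0422) without regard to strand.

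For the 2 antigens called in any comparison, the protein-coding genes most like them over the 9 libraries were sought among 11447 genes of at least 1 CPM, by the root mean square difference in log2 CPM centred on each gene's own mean. CLEC12A was closest to GLRX (0.18), GPAT3 (0.196) and GLIPR2 (0.198). GLRX, which encodes a glutaredoxin, was at 2.23 and 1.81 CPM in KO clone 1 and KO clone 2, against 4.41 CPM in WT. HAVCR2 was closest to PRKCA (0.0836), ACADS (0.121) and TMEM9 (0.132). PRKCA, which encodes protein kinase C alpha, was at 31.1 CPM in KO clone 1 and 12.3 CPM in KO clone 2, against 30.3 CPM in WT, and like HAVCR2 was lowest in KO clone 2. The 9 libraries share 3 groups, so likeness mostly reflects the group means.

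**Figure D5:**
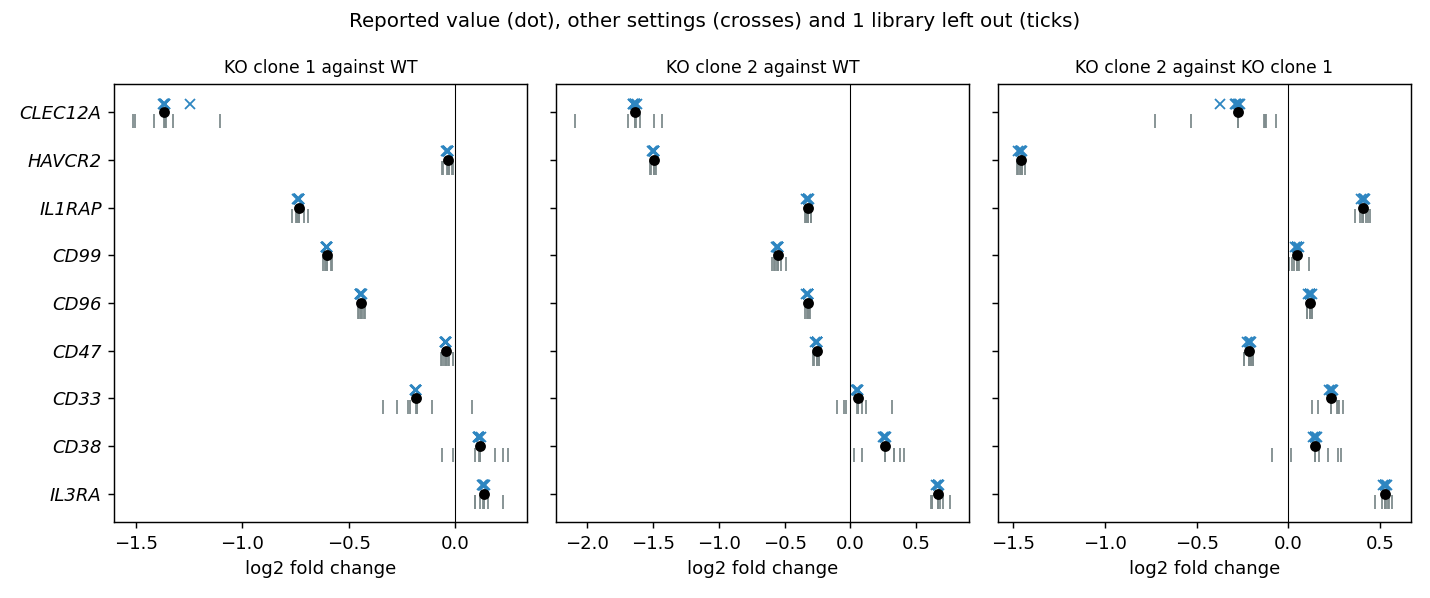
Log2 fold change of the 9 tested antigen genes (horizontal axis) in KO clone 1 against WT, KO clone 2 against WT and KO clone 2 against KO clone 1, as reported (black dots), under other settings (blue crosses) and with 1 library left out (grey ticks). The ticks of CD33 and CD38 lie on both sides of 0, and those of CLEC12A run from -2.09 to -1.43 in KO clone 2.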

How the data were processed

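Total RNA of 9 KG-1a libraries was sequenced as read pairs. For each library the authors deposited a file of raw counts per gene, from STAR on GRCh38 per the submitters' processing notes, counted once unstranded and once for each strand. Versions of the aligner and its annotation are not given in the sources used here. One strand held 92.03% to 92.31% of the stranded counts in every library, and its counts were used. Counted pairs were 25.93% to 29.59% of all pairs. The deposited table of both clones against WT holds log2 fold changes and p-values from DESeq2, per the series text, and its raw counts equal the unstranded counting in 9 of 9 libraries. Another 9 per-sample columns of that table were not used.

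Counts were filtered with filterByExpr by group, scaled by TMM and fitted with the quasi-likelihood model of edgeR 4.0.16 (robust, 1 coefficient per group) in R 4.3.3. The script was tested on simulated data. Standard errors were taken as the size of the log2 fold change over the root of its F statistic. Positions and exon lengths came from GENCODE release 44, in which 60463 of the 60605 identifiers were found, and symbols from the authors' table. Promoters came from RefSeq (GRCh38.p14), which matched 8 of the 10 antigens. The text names all 10 antigens, PRMT2, listed direct partners and, per list, up to 8 genes called when the clones were averaged. It also names the 3 genes most like each called antigen, with 0.5 added to CPM before log2. CD3D, CD34, ANPEP, ITGAM, HMGB1, MED7, CD99P1, IL18R1, MT-RNR1 and MT-RNR2 were named after their values were seen. Members and lists were chosen with earlier results of these data known. Replicate pairs had a chi-squared per degree of freedom of 2.53 to 5.186, except 49.54 and 50.57 in the pairs that held KO clone 1 replicate 1. Alternatives were counts without regard to strand, DESeq2 1.42.0 size factors and its Wald test, library totals only, no filter, only the groups compared, a replicate block, and leaving out each library.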

Additional observations from a re-analysis of the deposited data

Results flagged for a closer look

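For 5 antigens the change differed between the clones by a direct test of KO clone 2 against KO clone 1. HAVCR2 differed by -1.46 on the log2 scale, IL3RA by 0.53, IL1RAP by 0.41, CD47 by -0.21 and CD96 by 0.12. HAVCR2, at 5.46 ± 0.083 CPM in KO clone 2 against 15.0 ± 0.473 CPM in KO clone 1, was the only one past the fold minimum (SD, n = 3 libraries each). IL3RA, IL1RAP and CD96 were higher in KO clone 2, and HAVCR2 and CD47 were lower. Each clone stands for 1 editing event, so differences between them are differences between 2 cell lines.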

How the results depend on the processing

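Of 567 alternative values for the antigens, 555 kept the direction and the side of the adjusted p of 0.05. All of the reversals came from CD33 and CD38 with 1 library left out, where no change had passed. CD38 then ranged from -0.062 to 0.25 in KO clone 1 against WT and from -0.086 to 0.29 in KO clone 2 against KO clone 1. CD33 ranged from -0.34 to 0.081 in KO clone 1, from -0.10 to 0.32 in KO clone 2 and from -0.22 to 0.20 in the mean of both clones. Of 1124 alternative values for 26 other named genes, 1085 kept direction and side. Reversed there were, with 1 library left out, CEACAM1 in KO clone 1 (-0.19 to 0.030), PILRA in KO clone 2 (-0.30 to 0.030) and CSF1R in KO clone 2 (-0.33 to 0.34). CSF1R in KO clone 2 was also at -0.078 when counts disregarded strand, and the cause was not tested. Over all alternatives, 4 to 5 antigens passed in KO clone 1, 7 in KO clone 2 and 4 to 5 between the clones.

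Same-numbered libraries did not deviate together over the tested genes, with correlations of -0.028 to 0.0392, so no pairing by replicate number was seen. Such correlations cannot tell how the replicates were made or numbered. With a replicate block, 4, 7, 7 and 5 antigens passed in KO clone 1, KO clone 2, their mean and between the clones, with 1, 2, 1 and 1 called, and 1557, 1228, 1349 and 577 of all genes were called. Depth limits the antigens CD33, CD38, CD70 and CLEC12A, which have under 100 counts in each library. The same holds for CSF2RB, IL1RN, PILRA, BST1, CLEC7A, TIGIT, CLEC12B, CXCR4, CD86, CD84 and CSF1R.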
